A study of Mus musculus with 72 samples.

Results

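Genes that mark microglia, the resident macrophages of the brain, were followed through bulk RNA sequencing of mouse hypothalamus. They are Cx3cr1, P2ry12, Tmem119, Csf1r, Aif1, C1qa, C1qb, C1qc, Trem2 and Itgam, taken as a listed set of 10 out of 55401 genes that appear in any of the 10 deposited count tables; 21749 genes, the 10 included, are listed in every table. The mice were adult B6 animals of 5 lines, E1 to E5. Each line had wild types (WT) and knockouts (KO) of a different conserved noncoding element, and each was sampled fed and after 72 h of fasting with water. The names of the deposited count tables join the gene symbol Fto to each line. The 20 groups held 4 libraries each, except 3 in every E3 group, in the fasted E1 wild types, in both fasted E2 groups and in the fasted E4 knockouts, which gave 72 libraries in all. The labels name no allele or agent beside the element and the fasting, and the positions of the elements, the age in weeks and the sex are not given in the sources used here. The labels do not say whether each library is a separate mouse or a pool, so the p-values below measure the spread between these libraries.

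Microglia enter the brain early in development and renew themselves there. Their survival depends on Csf1r, the receptor tyrosine kinase for the cytokines Csf1 and Il34. Cx3cr1 is the receptor for fractalkine (Cx3cl1), which neurons present; P2ry12 is the purine receptor that steers microglial processes towards released nucleotides; Trem2 is a lipid-sensing receptor that signals through the adaptor Tyrobp; and Itgam pairs with Itgb2 as complement receptor 3. Tmem119 is a membrane protein widely used to tell microglia from blood-derived macrophages, and Aif1 encodes the actin-binding protein Iba1, a common stain for microglia. C1qa, C1qb and C1qc encode the chains of C1q, which starts the classical complement cascade and is made in the brain mainly by microglia. In bulk tissue, fewer cells of a type and less RNA per cell cannot be told apart.

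The 3 C1q genes lie side by side on the minus strand of mouse chromosome 4. In the GENCODE M21 annotation of GRCm38 (mm10), C1qb spans 136880129 to 136886187, C1qc spans 136889804 to 136893065 and C1qa spans 136895917 to 136898803. The stretches upstream of C1qb and C1qc are shown here from RefSeq (GRCm38.p6), 5′ to 3′ on the gene's strand, and only outside the annotated gene bodies. Capitals mark a match to AGGAAGT, a core that ETS factors such as PU.1 (Spi1) bind, searched on both strands; ACTTCCT is that core on the opposite strand.
C1qb, chr4:136886201-136886450: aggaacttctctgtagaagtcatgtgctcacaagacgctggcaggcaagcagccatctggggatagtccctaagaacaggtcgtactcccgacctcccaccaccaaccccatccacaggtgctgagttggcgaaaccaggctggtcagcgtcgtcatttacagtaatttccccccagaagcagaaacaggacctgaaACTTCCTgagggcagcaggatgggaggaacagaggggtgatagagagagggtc
C1qc, chr4:136893066-136893164: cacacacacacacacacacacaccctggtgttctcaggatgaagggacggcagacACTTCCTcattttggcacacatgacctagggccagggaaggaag

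The match began 53 bases before the RefSeq start of C1qb; that of C1qc lies farther from its start, in the part of the window outside the gene body. Windows of 250 bases before the start were searched for 7 members, and C1qa and Tmem119 were not among them. P2ry12 also held the core, while Cx3cr1, Aif1, Trem2 and Itgam did not. Chromosome 18, which holds Csf1r, was left out of the search over members. The count over all genes left out no chromosome: of 32851 such windows, 7.69% held the core. A match of letters is a description of the sequence and not a measured binding site. The part of these matches in the levels of the members was not tested.

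Depth was 5517552 to 39999368 counts per library. Levels are given as scaled CPM: CPM over the genes listed in all tables, with TMM factors computed once over all 72 libraries. Markers of other tissues passed 400 scaled CPM in summed level in 11 libraries. These were fat in knockout library 3 of fed E2; anterior pituitary in all 3 fasted E2 wild types, in 1 fasted E4 knockout, in 1 fasted E5 wild type and in 1 fasted E5 knockout; and choroid plexus in 3 E3 libraries and in 1 fasted E5 wild type. Summed markers of blood leukocytes stayed between 0.315 and 26.4 scaled CPM, and those of border macrophages between 24.3 and 435, the highest of each being that fed E2 library. The other microglia genes of the homeostatic list summed to 410 to 1028 scaled CPM, so that microglial transcripts were present in every library. The batch label was shared by fed and fasted libraries only in E1 and in E3; each of the other lines had separate labels for fed and for fasted mice, so that batch and feeding cannot be told apart within them.

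P2ry12 and Itgam were listed at 0 in all 72 libraries, and neither appears in the authors' deposited edgeR tables. A count of 0 allows up to 0.0750 CPM in the deepest library and 0.544 CPM in the shallowest, for counting error only. In the annotation, the whole body of P2ry12 (chromosome 3, 59216272 to 59262871, minus strand) lies inside Med12l on the opposite strand, and 99.9% of the body of Itgam (chromosome 7, 128062640 to 128118491, plus strand) lies inside the gene model Gm49368 on the same strand. Only 0.354% of the exon bases of P2ry12 are shared with exons of another gene, against 68.7% for Itgam. Among genes listed in all tables, 1159 of the 1257 whose body lies wholly inside other genes (92.2%) were at 0 in every library, against 879 of 11640 without any overlap (7.55%). Of 646 such nested genes that share no exon base, 591 (91.5%) were at 0. Of 1424 genes with at least 99% of the body inside other genes, the class that holds Itgam, 1225 (86%) were at 0. Most genes that lie inside others as P2ry12 and Itgam do were thus at 0, and these zeros are not read as a lack of expression. P2ry13, Gpr34 and Vsir of the other homeostatic microglia genes and the transcription factor Irf8 were at 0 throughout as well. The other 8 members were counted in every library, and 57.4% of the body of Cx3cr1 and 2.97% of that of Csf1r overlap other genes. Cx3cr1 (9:119901616-120069879), Tmem119 (5:113793729-113800516) and Aif1 (17:35170991-35176068) lie on minus strands, and Csf1r (18:61100598-61132149) and Trem2 (17:48346401-48354147) on plus strands. Since counted length is uncertain, levels are not compared between genes per length.

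The receptors and their partners are described first. Csf1r, the most heavily counted member with a median of 1068.5 counts per library, ranged from 33.6 to 110 scaled CPM with a median of 51.5. Its lowest group mean was 40.1 ± 4.20 (SD, n = 4) in fed E2 wild types and its highest was 60.7 ± 6.64 (n = 4) in fasted E1 knockouts. Cx3cr1 ranged from 12.2 to 42.1 around a median of 25.9, with group means from 16.7 ± 3.96 (n = 3) in fasted E2 wild types to 37.0 ± 4.41 (n = 3) in fed E3 knockouts. Trem2 had 18 to 187 counts per library and 1.96 to 7.56 scaled CPM, and its group means ran from 2.66 ± 0.675 (n = 4) in fed E5 wild types to 7.28 ± 0.380 (n = 3) in fasted E3 knockouts. Csf1r libraries under 40 came from fed E2 and E5, from fasted E2, E3 and E4 and from fed E4, so no line held the low values alone.

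Tmem119 ranged from 3.99 to 19.5 scaled CPM with a median of 8.78, and 3 of the 6 fasted E2 libraries were under 5. Aif1 was the least counted of the 8, with 7 to 82 counts per library and 0.712 to 3.62 scaled CPM. Its median standard deviation within groups was 24.3% of the mean, against 10.8% for Csf1r and Cx3cr1, so differences of Aif1 are known least precisely.

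C1qa had group means from 6.61 ± 1.05 (n = 4) in fed E5 knockouts to 26.0 ± 2.37 (n = 3) in fasted E3 knockouts. C1qb ran from 9.54 ± 0.844 (n = 4) in fed E5 wild types to 40.4 ± 6.68 (n = 3) in fasted E3 knockouts, and C1qc from 8.36 ± 1.11 to 25.0 ± 2.89 in the same groups. All 3 C1q genes and Trem2 thus had their lowest group mean in fed E5 and their highest in fasted E3. Every E3 library was at 25.8 or more for C1qb, above every other library except knockout library 3 of fed E2 (36.3) and 1 fasted E5 wild type (27.4), which lie inside the E3 range. All E3 libraries carry a batch label that no other line has, so line and batch label cannot be told apart for these levels.

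**Figure D1:**
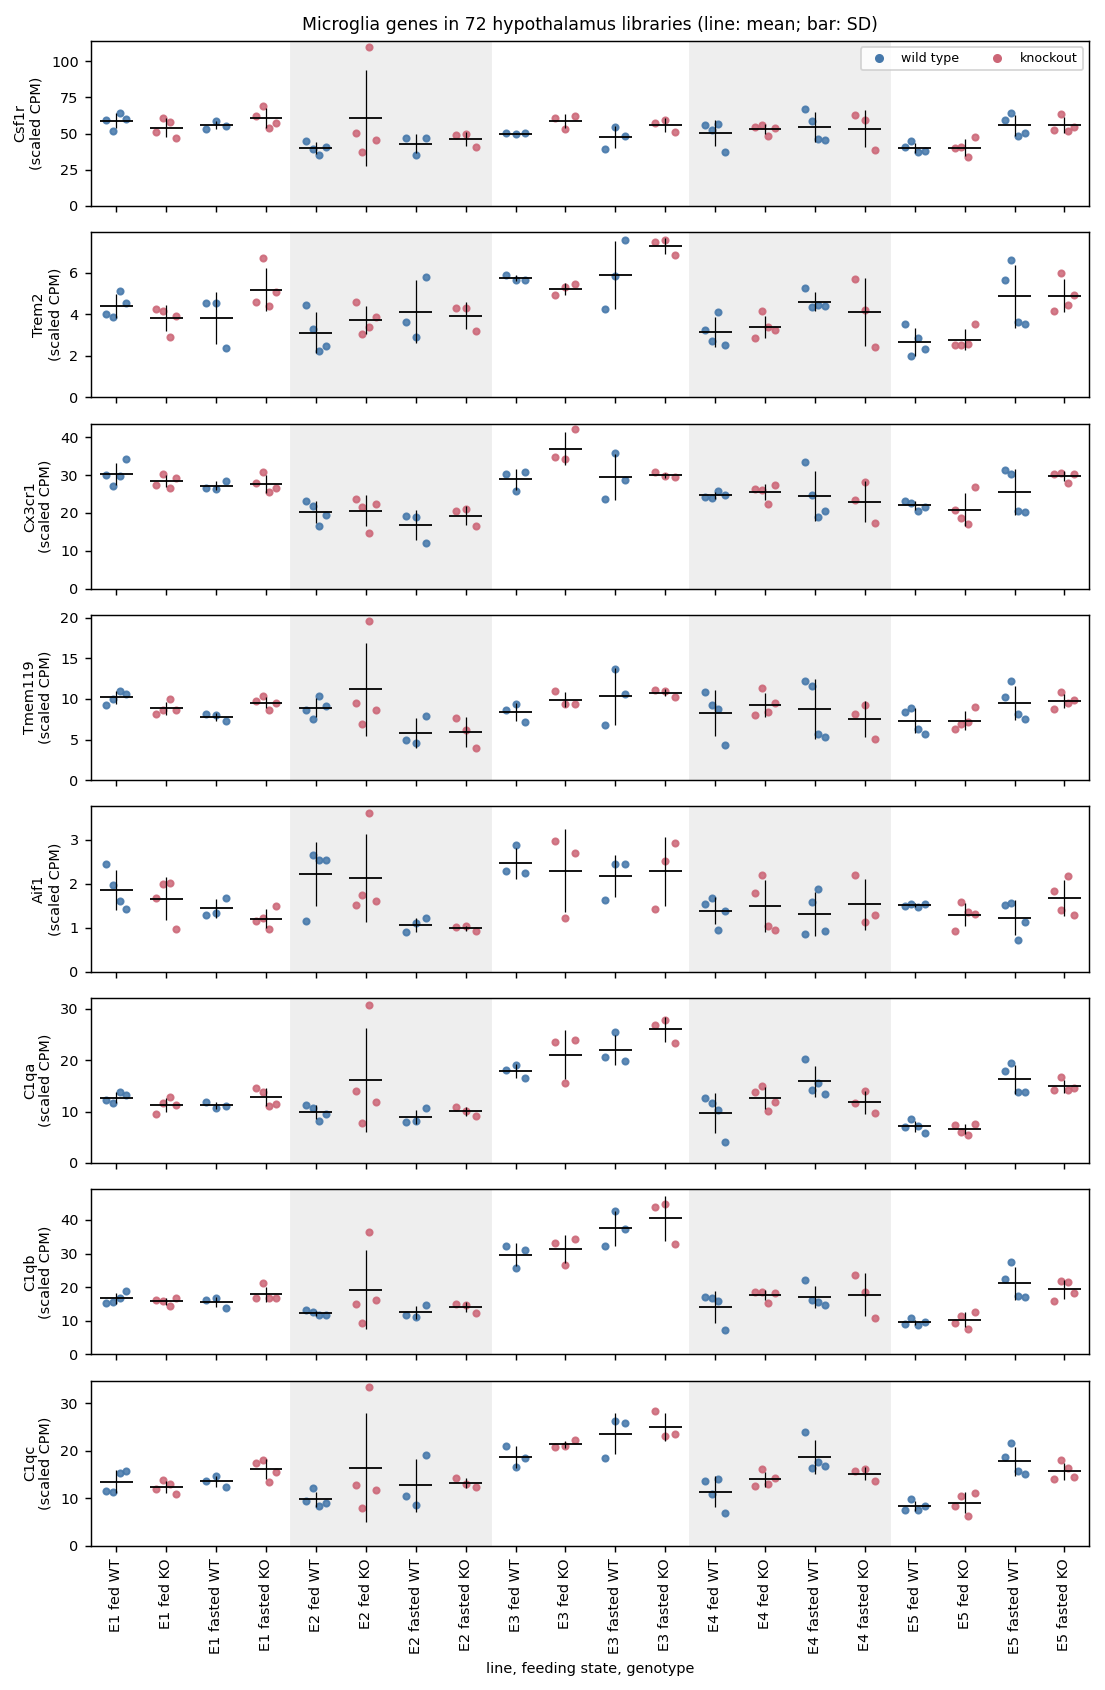
Scaled CPM of the 8 counted microglia genes (vertical axes, linear from 0) in each of 72 libraries, by line, feeding state and genotype; points are libraries, horizontal lines group means and vertical bars SD. The group means of the C1q genes and Trem2 are lowest in fed E5 and highest in fasted E3, and knockout library 3 of fed E2 stands above its group for Csf1r, Tmem119 and C1q.

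The first comparison asked whether an element's knockout changed these genes within a line and feeding state. None of the 8 counted members was called in any of the 10 comparisons of knockout with wild type (edgeR's quasi-likelihood test over all genes, Benjamini-Hochberg adjusted p under 0.05), and DESeq2 called none either. The background was the same: 0% of 14590 to 20243 genes tested were called in each of these comparisons. That background depends on the tool: DESeq2 called between 0% and 4.84% of genes in the 10 comparisons, the most in fasted E3, though no member. Among the 80 estimates, 4 had an unadjusted p under 0.05, and the smallest adjusted p was 0.339. The estimates ran from -0.44 (C1qa in fasted E4) to 0.78 (C1qc in fed E2) on the log2 scale, knockout minus wild type, and 53 of 80 were above 0. The median size of the difference was 0.14. The 95% interval reached 0.38 to either side in the median estimate, and in 73 of 80 it lay within a doubling or halving (log2 of 1). On simulated data with the E5 fed libraries' spread, the test called 36% of genes changed by 0.5 on the log2 scale. It called 96% of genes changed by 1, so small differences could be missed. The simulation held 200 changed genes, which makes the adjusted threshold easier to pass than where a single gene differs. For a lone changed member these shares are therefore likely too high. The changed genes were drawn only from those with a mean above 5 CPM. In fed E5 wild types Aif1 (1.51 scaled CPM) and Trem2 (2.66) lay below that, so these shares do not cover them.

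The 4 estimates with an unadjusted p under 0.05 were Cx3cr1 and Csf1r in fed E3, Tmem119 in fasted E1 and C1qa in fasted E4. Cx3cr1 was at 30.4, 25.7 and 30.7 scaled CPM in the fed E3 wild types and at 34.7, 34.3 and 42.1 in the knockouts. The groups did not overlap; the difference was 0.33 ± 0.11 (SE) with an adjusted p of 0.42 by edgeR's quasi-likelihood test. Csf1r was at 50.2, 49.4 and 50.4 in the same wild types and at 60.8, 53.0 and 62.0 in the knockouts, a difference of 0.21 ± 0.083 (adjusted p = 0.48). Trem2 was lower in each of the 3 fed E3 knockouts (4.90, 5.32 and 5.46) than in the wild types (5.89, 5.64 and 5.64), at -0.15 ± 0.16. Tmem119 in fasted E1 was at 8.11, 8.07 and 7.23 in wild types and at 9.75, 10.3, 8.60 and 9.48 in knockouts, a difference of 0.29 ± 0.12 (adjusted p = 0.95). Groups stood apart in 6 of the 80 comparisons, 4 with the knockouts higher and 2 with them lower, beside 0% of genes called. Over the 15966 genes that passed the filter across all libraries, groups stood apart in 8.11% of gene and comparison pairs, so the count for the members lies near the background. In the fit of E3 over both feeding states Csf1r was 0.24 ± 0.085 higher in knockouts with an adjusted p of 0.67.

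The highest estimates of C1q and Csf1r came from fed E2 and rest on 1 library. C1qc was at 9.38, 12.1, 8.45 and 9.09 scaled CPM in fed E2 wild types and at 12.8, 7.97, 33.3 and 11.8 in knockouts. Csf1r was at 45.1, 39.6, 34.9 and 40.8 in wild types and at 50.1, 36.9, 110 and 45.4 in knockouts. In both genes knockout library 3 was the high value, and the other 3 knockouts overlapped the wild types. With it the differences were 0.78 ± 0.40 for C1qc, 0.73 ± 0.38 for C1qa, 0.68 ± 0.36 for C1qb and 0.63 ± 0.31 for Csf1r (adjusted p = 0.87 for each). Without it they were 0.17 ± 0.19, 0.19 ± 0.20, 0.16 ± 0.18 and 0.15 ± 0.13. In that library fat markers summed to 8342 scaled CPM against 0.504 to 0.963 in the other 7 fed E2 libraries, fibroblast markers to 3374 against 26.0 to 66.3, and border macrophage markers to 435. Cx3cr1 was at 14.7 there, the lowest value of the 8 libraries. The part of fat and its macrophages in the C1q, Csf1r and Tmem119 values of this library was not tested.

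In fed E4, wild type library 4 was low in most members. C1qa was at 12.7, 11.6, 10.2 and 4.06 scaled CPM in the wild types and at 13.8, 14.9, 10.02 and 11.9 in the knockouts. C1qb was at 16.9, 16.6, 15.8 and 7.14 in the wild types and at 18.5, 18.7, 15.3 and 18.2 in the knockouts. Cx3cr1 was not low in that library, at 24.7 against 23.9 to 25.8 in the other 3. All 8 members had positive estimates in fed E4 with a median of 0.14, against 0.0025 over all genes. Without wild type library 4, C1qa went from 0.38 to 0.12, C1qb from 0.32 to 0.090 and C1qc from 0.29 to 0.11, and the estimates of Tmem119 and Csf1r were -0.066 and -0.063. In the same library neuron markers summed to 3931 scaled CPM, against 2294 to 2548 in the other 3 wild types, and activated microglia genes to 528 against 1042 to 1128. The part of these shifts in the member values was not tested.

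In fasted E4 the direction was the other way: 7 of 8 members had negative estimates. C1qa was at 20.2, 14.1, 15.6 and 13.5 scaled CPM in wild types and at 11.7, 14.0 and 9.66 in knockouts, a difference of -0.44 ± 0.19 (adjusted p = 0.51). C1qc was at 24.0, 16.4, 17.6 and 16.7 in wild types and at 15.7, 16.1 and 13.6 in knockouts, a difference of -0.32 ± 0.16. Knockout library 1 was the shallowest of the 72 libraries, at 5517552 counts. With each library left out in turn, the estimate of C1qa ran from -0.64 to -0.28. Knockout library 3, which held pituitary markers at 6575 scaled CPM, had the lowest value of the 7 libraries for Cx3cr1, Tmem119, Csf1r, C1qa, C1qb, C1qc and Trem2. Without it C1qa was at -0.28 ± 0.20 and C1qb at 0.25 ± 0.19, from -0.037 ± 0.23 with it. The estimates of Cx3cr1, Tmem119 and Csf1r also turned positive, at 0.095, 0.018 and 0.14.

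**Figure D2:**
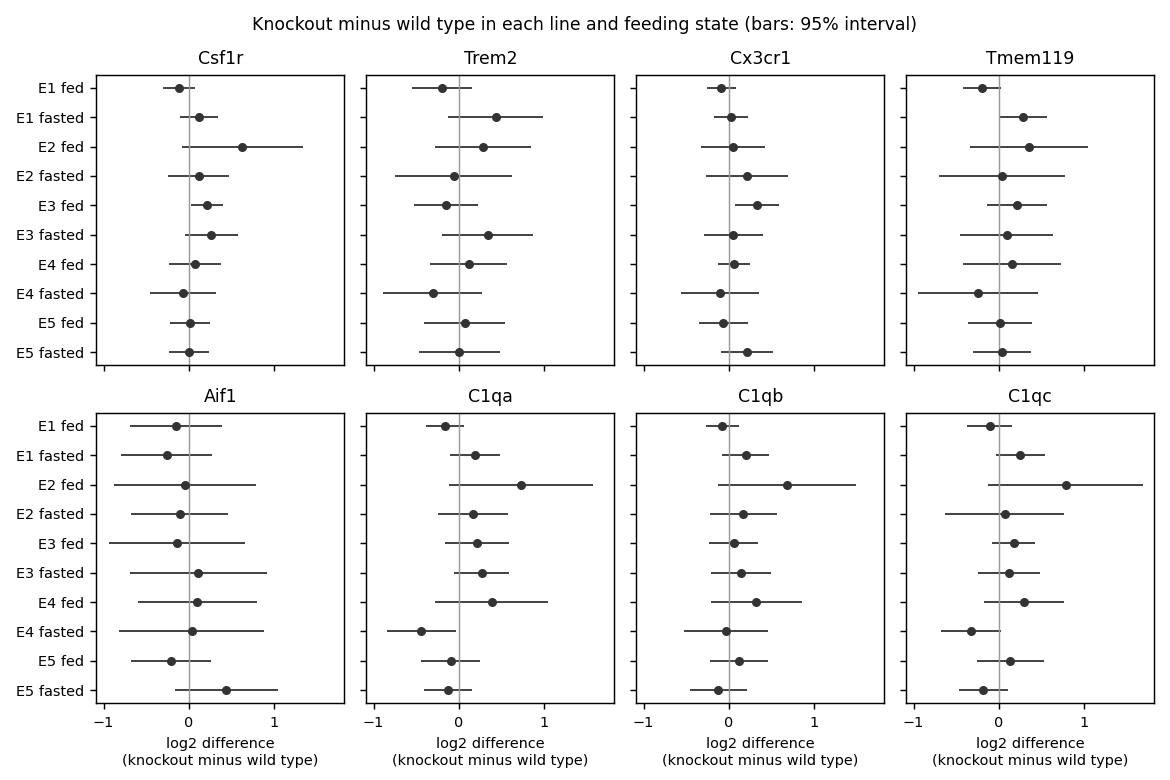
Log2 difference of knockout minus wild type (horizontal axis) for 8 microglia genes in each line and feeding state; points are edgeR estimates and bars 95% intervals. The bar of C1qc in fed E2 is the widest of the 80, Aif1 has wide bars in several groups, and no estimate was called.

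Over both feeding states of a line, with feeding as a covariate, 0 of the 8 members were called in each of the 5 lines, beside 0% of all genes, and 1 of 40 estimates (Csf1r in E3) had an unadjusted p under 0.05. The 40 estimates ran from -0.20 to 0.50, and 38 of 40 intervals lay within 1 on the log2 scale. The interaction, which asks whether the knockout difference depends on feeding, called 0 of 8 members in every line; the background was 0% of genes in E1, E2, E4 and E5 and 1.34% in E3. Tmem119 in E1 had the smallest unadjusted p of these 40 estimates (0.00386), with the knockout difference larger by 0.49 ± 0.14 when fasted and an adjusted p of 0.60. In E4 it was C1qa and C1qc whose knockout difference was lower when fasted, by -0.83 ± 0.39 and -0.62 ± 0.28 (adjusted p = 0.45 for each); without wild type library 4 of fed E4 these were -0.57 and -0.44. DESeq2 called no member in these fits either. The authors' deposited tables hold the 8 counted members in 8 genotype comparisons, 64 values in all, with an adjusted p of 1 in each; the sign was that of the fits here in 62 of 64.

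Fasting was compared within E1 and E3, whose fed and fasted libraries share a batch label. In a fit over both lines and genotypes (27 libraries, 4 arms of line and genotype), C1qc rose by 0.25 ± 0.073 (log2 ± SE, adjusted p = 0.0094) and C1qb by 0.20 ± 0.071 (adjusted p = 0.029), changes of 1.19-fold and 1.15-fold. These were 2 of the 8 counted members, beside 33.1% of all genes called and 17.9% called as higher when fasted. The median over the 8 members was 0.10, against 0.018 over all genes. C1qa was at 0.16 ± 0.077 (adjusted p = 0.11) and Trem2 at 0.22 ± 0.11 (adjusted p = 0.14). Csf1r was at 0.012 with a 95% interval of -0.10 to 0.13, so that a change of either sign beyond about that size lies outside the interval. Tmem119 was at 0.046, Cx3cr1 at -0.10 and Aif1 at -0.25, none of them called.

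The values by library show how small these differences are beside the spread. C1qc was at 11.5, 11.2, 15.3 and 15.7 scaled CPM in fed E1 wild types and at 13.5, 14.7 and 12.3 in fasted ones. In E1 knockouts it was at 11.97, 13.8, 13.001 and 10.9 fed and at 17.5, 18.0, 13.4 and 15.6 fasted. In E3 wild types it was at 21.02, 16.5 and 18.5 fed and at 18.6, 26.3 and 25.8 fasted, and in E3 knockouts at 20.8, 21.03 and 22.2 fed and at 28.3, 23.1 and 23.6 fasted. Fed and fasted libraries of C1qc overlapped in both wild type arms and in the E1 knockouts, by a narrow margin there (13.8 against 13.4), and stood apart in the E3 knockouts. C1qb was at 32.2, 25.8 and 31.0 in fed E3 wild types against 32.4, 42.7 and 37.3 in fasted ones, which do not overlap. It was at 15.4, 15.7, 16.8 and 18.8 in fed E1 wild types against 16.2, 16.6 and 13.9 in fasted ones, which overlap. The share of all genes that stand apart within single arms was not counted.

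Arm by arm, the fasting difference of C1qc was 0.017 ± 0.15 in E1 wild types, 0.38 ± 0.11 in E1 knockouts, 0.33 ± 0.16 in E3 wild types and 0.26 ± 0.12 in E3 knockouts. Only the E1 knockout value was called (adjusted p = 0.022), 1 of 8 members beside 34.9% of all genes called and 18.3% called as higher. In the other arms edgeR and DESeq2 both called 0 of 8 members, beside 5.27% of genes in E1 wild types, 19.9% in E3 wild types and 0.505% in E3 knockouts. Unadjusted p-values under 0.05 numbered 1 (Tmem119), 1 (C1qb) and 3 (C1qb, Cx3cr1 and Trem2) in those 3 arms. Tmem119 in E1 wild types was at 9.21, 9.96, 10.99 and 10.5 fed and at 8.11, 8.07 and 7.23 fasted, groups that stood apart, with a difference of -0.37 ± 0.12 (adjusted p = 0.087). Trem2 in E3 knockouts was at 4.90, 5.32 and 5.46 fed and at 7.45, 7.55 and 6.85 fasted, also apart, at 0.51 ± 0.17 (edgeR adjusted p = 0.25). How many of all genes stand apart within single arms was not counted, so these separations are described only. Between knockouts and wild types of E3, also 3 against 3 libraries, 15.2% (fed) and 22.3% (fasted) of 15966 genes stood apart.

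The joint calls depend on which libraries enter. In wild types alone, C1qc was at 0.16 ± 0.12 (adjusted p = 0.38) and C1qb at 0.11 ± 0.10 (adjusted p = 0.51), and neither was called. Leaving out the 3 E3 libraries with choroid plexus markers kept C1qc (0.28 ± 0.077, adjusted p = 0.0066) but not C1qb (0.19 ± 0.074, adjusted p = 0.052). C1qb also lost its call when any of 6 single libraries was left out: E1 fasted knockout 2, E3 fed wild type 2, E3 fed knockout 2, E3 fasted wild type 2, or E3 fasted knockout 1 or 2, with estimates of 0.17 to 0.18. C1qc kept its call with each of the 27 libraries left out.

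**Figure D3:**
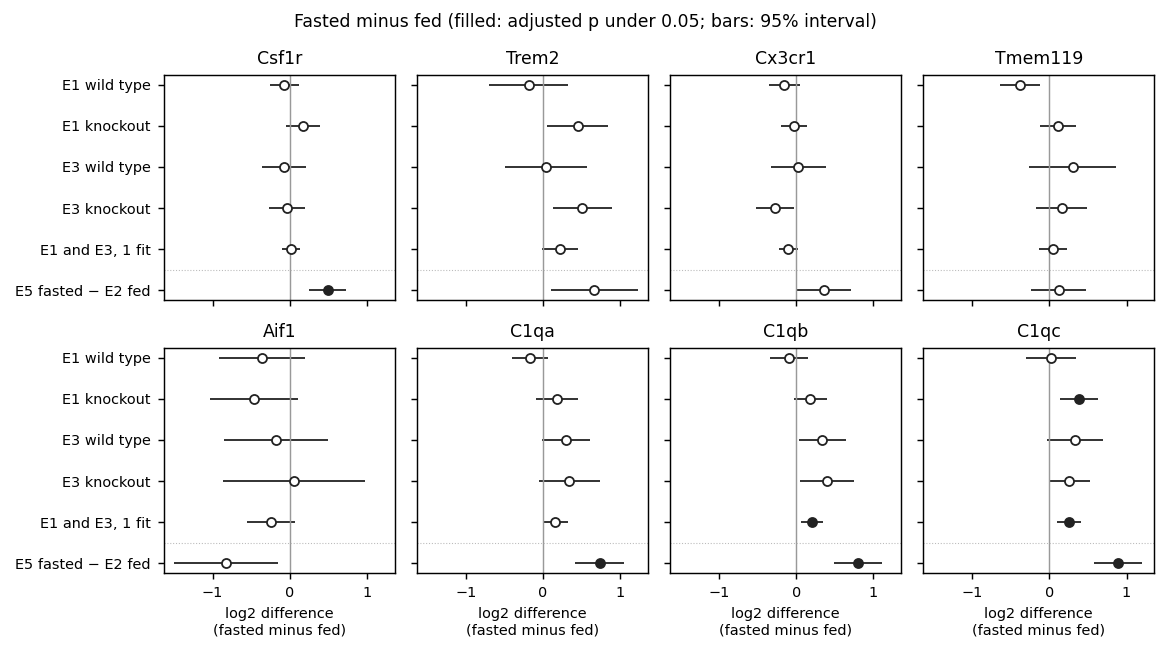
Log2 difference of fasted minus fed (horizontal axis) for 8 microglia genes, in each arm of E1 and E3, in the joint fit, and below the dotted line between fasted E5 and fed E2 wild types; bars are 95% intervals and filled points have an adjusted p under 0.05. C1qb and C1qc are filled in the joint fit and all 3 C1q genes and Csf1r between E5 and E2.

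Whether fasting differed between the lines was tested as E3 minus E1. No member was called by edgeR or DESeq2, beside 17% of all genes called, and 1 had an unadjusted p under 0.05: C1qb at 0.30 ± 0.13 (adjusted p = 0.12). C1qa was at 0.29 ± 0.15 and Tmem119 at 0.33 ± 0.17. This comparison moved with base composition. Transcripts of the 8 counted members are 50.3% to 59.5% GC, with C1qa at 59.5%, Tmem119 at 59.1%, C1qc at 57.5% and C1qb at 57.4%, against a median of 48.7% over the genes listed in all tables. With each library's trend on GC taken out, the differences of Tmem119 (0.47 ± 0.16, adjusted p = 0.042), C1qa (0.45 ± 0.15, adjusted p = 0.036) and C1qb (0.43 ± 0.14, adjusted p = 0.038) were called, beside 19.2% of all genes called in that fit. In E3 wild types alone, the same step moved C1qa, C1qb and C1qc to 0.52 each (adjusted p = 0.023, 0.015 and 0.033) from 0.30, 0.34 and 0.33, beside 13.9% of all genes called. The joint fasting values of C1qb and C1qc stayed close, at 0.22 and 0.27.

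The rest of the microglial program was read from lists that, like the members, were chosen with earlier results of these data known. In the joint fasting fit, 18 of 21 other homeostatic microglia genes could be tested, with 3 called higher, 2 called lower and a median of -0.015. In this fit 33.1% of all genes were called and 17.9% called higher, and no share of calls in the microglial lists below is read as more than that background. Fcgr3, an Fc receptor subunit, rose by 0.34 ± 0.083, the protease inhibitor Cst3 by 0.28 and the lysosomal protease Lgmn by 0.15. Fcrls, an Fc receptor-like gene typical of microglia, fell by 0.82 ± 0.12 (adjusted p = 2.2e-05), and Olfml3, a secreted protein, fell by 0.38. The value of Fcrls averages over lines that differ: it fell by 1.29 in E1 wild types and by 1.09 in E1 knockouts, was called in neither E3 arm, and the difference E3 minus E1 was called at 0.80 ± 0.19 (adjusted p = 0.0052). Cst3 (0.39) and Selplg (0.69), a ligand of selectins, were also called in E3 minus E1, and Selplg fell by 0.62 in E1 wild types and rose by 0.37 in E3 wild types. Of the 5 ligands and partners, 0 were called by edgeR: Csf1 was at 0.032, Il34 at -0.15, Cx3cl1 at 0.0084, Tyrobp at 0.17 and Itgb2 at -0.039. Il34, a ligand of Csf1r, had an adjusted p of 0.072.

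Complement genes other than C1q had positive estimates in the joint fit for each of the 11 tested of 14 in the list, with 2 called higher and a median of 0.23, beside 53.2% of all genes with a positive estimate. The called genes were C3ar1, the receptor for the C3a peptide, which rose by 0.51, and Clu, a regulator of the terminal complex made mainly by astrocytes, which rose by 0.33. Of the activated microglia list, 15 of 20 were tested and 3 were called, all higher: the lipid carrier Apoe by 0.44, the protease Ctsb by 0.30 and the secreted phosphoprotein Spp1 by 0.86. Apoe and Ctsb are also expressed by astrocytes and neurons. Border macrophage genes gave 1 call of 8 tested (F13a1, 0.52) and blood leukocyte genes 0 of 6. Other cell types moved in the same fit, in which 33.1% of all genes were called. Of endothelial markers, 4 of 6 were called lower with a median of -0.53, and 4 of 4 red blood cell genes with a median of -1.48. Of 6 astrocyte markers, Slc1a3 and Gja1 were called, both higher, beside 33.1% of all genes called and 17.9% called higher. Slc1a2 (0.16), Gfap (0.051), Aldh1l1 (0.066) and Aqp4 (-0.19) were not called. In E3, red blood cell genes summed to 0.862 to 36.6 scaled CPM, against 108 to 1011 in E1. Their part in the C1q differences was not tested.

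**Figure D4:**
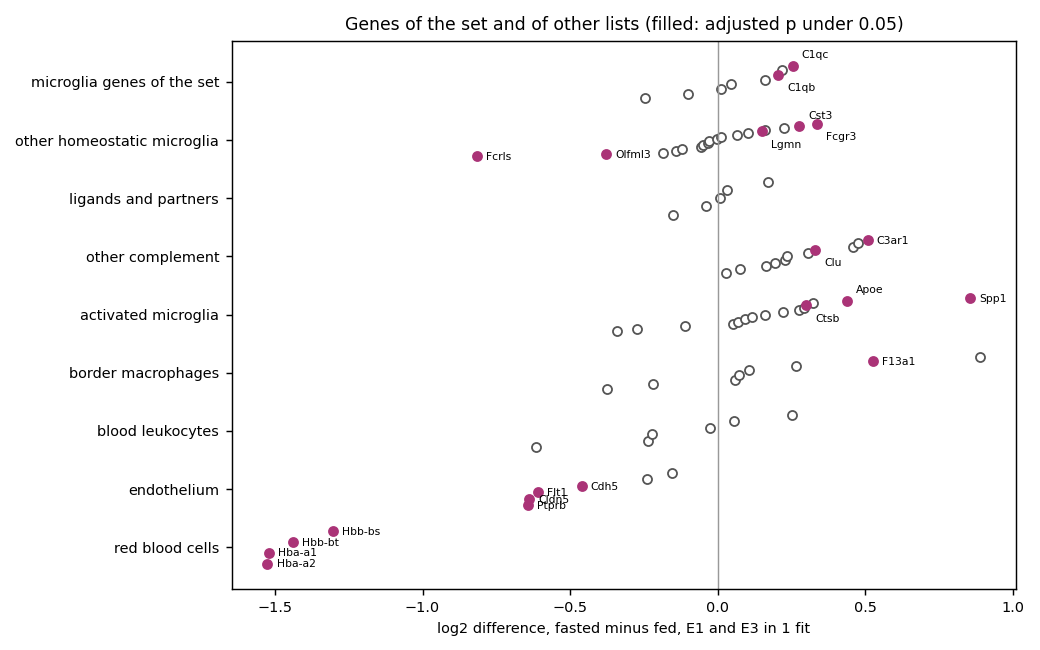
Log2 difference of fasted minus fed in the joint fit of E1 and E3 (horizontal axis) for each tested gene of the 8 microglia genes and of 8 other lists; filled and named points have an adjusted p under 0.05. C1qb and C1qc lie right of 0 with Cst3, Fcgr3 and C3ar1, while Fcrls and Olfml3 lie left of 0.

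Outside E1 and E3, the only fed and fasted libraries with the same batch label are fed E2 and fasted E5, so that line and feeding state cannot be told apart there. Fasted E5 wild types exceeded fed E2 wild types in 4 of the 8 members, beside 30.7% of all genes called and 15.7% called as higher. C1qc was at 9.38, 12.1, 8.45 and 9.09 scaled CPM in fed E2 and at 18.7, 21.6, 15.7 and 15.1 in fasted E5, a difference of 0.89 ± 0.14 (edgeR adjusted p = 0.0012). C1qb differed by 0.81 ± 0.14, C1qa by 0.73 ± 0.14 and Csf1r by 0.49 ± 0.11 (adjusted p = 0.0020, 0.0033 and 0.0061). Trem2 was at 0.66 ± 0.26 (adjusted p = 0.070) and Aif1 at -0.83 ± 0.31 (adjusted p = 0.059), and DESeq2 called both. Tmem119 was at 0.12 ± 0.16. The median over the 8 members was 0.58, against -0.013 over all genes. Among other lists, 7 of 18 homeostatic genes, 6 of 11 complement genes and 5 of 14 activated microglia genes were called higher, 1 activated gene (Cst7) was called lower, and the Trem2 partner Tyrobp differed by 0.98. Of the 4 fasted E5 wild types, 2 held choroid plexus (3193 scaled CPM) or pituitary markers (4645 scaled CPM). Without them the 4 calls stood, at 0.96 for C1qc, 0.91 for C1qb, 0.79 for C1qa and 0.57 for Csf1r.

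Within E5 itself, where feeding state and batch label coincide, fed and fasted libraries stood apart for 5 of the 8 members, each higher when fasted. Of the 15966 genes, 18.2% stood apart in E5 and 9.58% with fasted libraries higher, against 19.8% apart in E4, where no member did. C1qa was at 5.40 to 8.51 scaled CPM over 8 fed libraries (median 7.09) and at 13.8 to 19.4 over 8 fasted ones (median 14.4). C1qb was at 7.63 to 12.6 fed and at 15.9 to 27.4 fasted, and C1qc at 6.26 to 11.1 fed and at 14.0 to 21.6 fasted. Csf1r was at 33.6 to 47.3 fed and at 48.1 to 64.1 fasted, and Trem2 at 1.96 to 3.52 fed and at 3.54 to 6.62 fasted. Cx3cr1, Tmem119 and Aif1 overlapped. In E1, E2, E3 and E4 fed and fasted libraries overlapped for all 8 members. In E2, where feeding and batch label also coincide, C1qa had a fasted to fed ratio of means of 0.728, against 2.27 in E5; without knockout library 3 of fed E2 it was 0.904. All 3 fasted E2 wild types held pituitary markers, and the difference between these lines was not tested.

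Within groups, most members moved together from library to library. For each library the log2 level was taken minus its group mean, and values were correlated over 72 libraries; points share each library's depth, scaling and RNA, so these are descriptions without a test. The 3 C1q genes correlated with each other at r = 0.80 to 0.85, and Tmem119, Csf1r and the C1q genes at 0.71 to 0.87 over 10 pairs. Without knockout library 3 of fed E2 these ranges were 0.73 to 0.80 and 0.66 to 0.83. Trem2 paired with the other members at -0.036 to 0.48. Cx3cr1 was looser, at -0.16 to 0.40, and -0.086 to 0.51 without that library. Aif1, the least counted, correlated with no member above 0.30.

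The genes most like the mean of the 8 members, by the same measure, among 11536 genes with a mean of at least 5 scaled CPM, were Gpx1 (r = 0.84), Trf (0.84), Gm2a (0.83), Anxa5 (0.83), Fxyd1 (0.82), Taldo1 (0.82), Fcrls (0.82), Ech1 (0.81), Cd151 (0.81) and Clic4 (0.80). Fcrls is the only one of these on a microglia list. Trf, the iron carrier transferrin, is a gene of oligodendrocytes in the brain. Without the library with fat transcripts, Gm2a, Trf, Gpx1 and Anxa5 ranked highest at 0.79 to 0.81. The microglial protease Ctss entered the first 10, as did Vegfb, Cox8a and Slc48a1, which are on none of the lists. By list, the median r was 0.63 over 15 homeostatic microglia genes and 0.68 over 8 activated microglia genes, against 0.046 over all genes. It was 0.40 over 6 astrocyte markers, 0.37 over 6 oligodendrocyte markers, 0.58 over 4 fibroblast markers and -0.30 over 4 neuron markers. Without that library the value was 0.68 for homeostatic and 0.62 for activated microglia. It was then 0.48 for astrocytes, 0.47 for oligodendrocytes, 0.44 for fibroblasts and -0.30 for neurons.

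**Figure D5:**
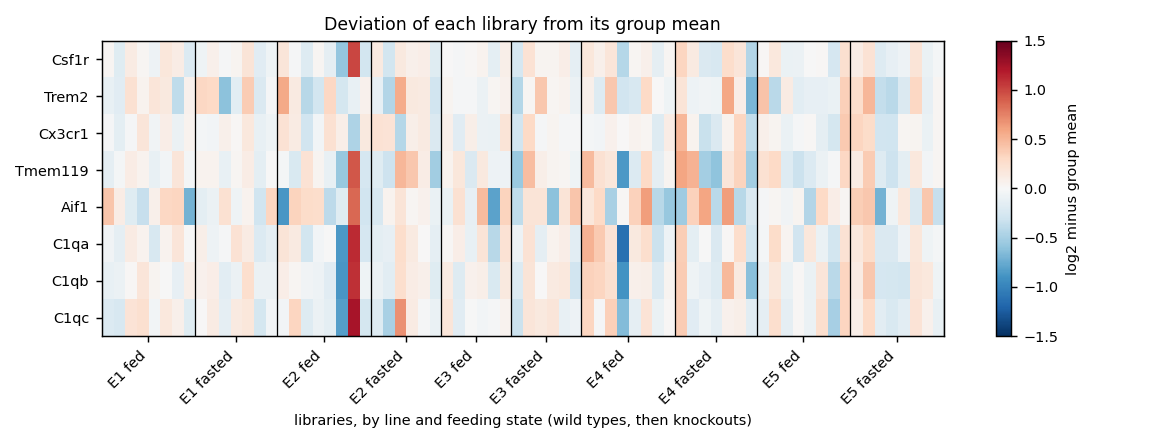
Colour shows the log2 level of each of 8 microglia genes minus its group mean (scale from -1.5 to 1.5) in 72 libraries, ordered along the horizontal axis by line and feeding state. Knockout library 3 of fed E2 is the dark red column except for Cx3cr1 and Trem2, and wild type library 4 of fed E4 is the dark blue column for C1q and Tmem119.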

How the data were processed

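Total RNA from hypothalamus was sequenced. Per the submitters' processing notes, HISAT2, Bowtie2, edgeR and the mm10 genome were used; versions, the counting tool and strand are not given in the sources used here. The authors deposited raw counts per Ensembl gene in 10 tables, and edgeR tables for 8 genotype comparisons with log2 ratios of wild type over knockout, p-values and adjusted p-values. Of the count columns, 0 were left without a sample.

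Symbols came from the deposited edgeR tables and, for P2ry12 and Itgam, which those lack, from the E4 fasted table. Counts were fitted with edgeR 4.0.16 in R 4.3.3 (TMM, quasi-likelihood; genes kept with a minimum count of 10 and total of 15), with Benjamini-Hochberg adjustment over all genes tested and calls at 0.05. Each fit used only the groups compared, in 27 comparisons. Intervals cover 95%. The fit was tested on simulated data with 200 changed genes.

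Alternatives were RLE scaling, DESeq2 1.42.0, no filter, both feeding states together, a replicate block, wild types only, and each library left out. Added after seeing the data were each library's GC trend as an offset (lowess on the longest transcript's GC) and fits without libraries holding other tissues. The members and the 20 other lists were chosen with earlier results of these data known. Named genes were the 10 members, up to 4 called genes per list and direction, and the 10 genes most correlated with the members. Same-numbered libraries did not all correlate above 0.1, so numbers were not taken as pairs. In fasted E3, each wild type still matched the knockout of its own number best, at r = 0.16, 0.018 and 0.23. A result on a listed gene is not reported here.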

Additional observations from a re-analysis of the deposited data

Results flagged for a closer look

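In groups of 4 libraries, a sample was listed here when its gap to the nearest other, as a share of the group's range, passed Dixon's 95% critical value. Of 96 gene and group combinations, 9 passed, and chance gives about 1 in 20. C1qb was low at 7.14 scaled CPM in fed E4 wild type library 4 (others 15.8 to 16.9), low at 15.3 in fed E4 knockout 3 (others 18.2 to 18.7) and high at 21.2 in fasted E1 knockout 2 (others 16.7). Aif1 was high at 3.62 in fed E2 knockout 3 (others 1.51 to 1.75), the library with fat transcripts, and low at 1.15 in fed E2 wild type 1 (others 2.54 to 2.66). C1qc and Trem2 were both high in fasted E4 wild type 1, at 24.0 (others 16.4 to 17.6) and 5.26 (others 4.35 to 4.42). Trem2 was high at 3.51 in fed E5 knockout 4 (others 2.50 to 2.54), and Cx3cr1 low at 27.8 in fasted E5 knockout 3 (others 30.3 to 30.5), a library with pituitary markers.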

How the results depend on the processing

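No genotype or interaction fit called a member under any of 323 alternative fits. A replicate block, with numbers from the labels, was fitted for 8 comparisons and left 0 members called in each, as without it. Of the member estimates, 0 that were called changed sign. Sign changes of uncalled estimates numbered 270, counted per gene and alternative fit, and 217 of them came with a library left out. The estimates compared were 2440 with a library left out, 800 in the other alternatives and 344 in those added after seeing the data. For fasting in E1 and E3 jointly, 2 members were called, 0 in wild types only, 1 without libraries holding other tissues, and 1 to 3 with each library left out. Fasting in E1 knockouts gave 0 to 1 calls with each library left out (0 without fed knockout 1 or 4, or fasted knockout 1 or 2). Fasting in E3 wild types gave 3 calls, and E3 minus E1 gave 3, with the GC trend taken out; leaving out each library gave 0 to 1 for the latter (1 without fasted E3 knockout 3). Between fasted E5 and fed E2, 4 members were called and 4 to 6 with each library left out; DESeq2 added Trem2 and Aif1, and no filter added Trem2. Depth limits Aif1 and Trem2 most. Genotype in fasted E2 could not be fitted without other tissues, since all 3 wild types held pituitary markers. Counts over all genes moved more than those of the members. By edgeR and DESeq2 they were 0 and 104 for genotype in fed E3, 0% and 4.84% of genes in fasted E3, 0 and 117 in fasted E2, 0 and 21 or fewer in the other genotype comparisons, 202 and 1095 for the E3 interaction, 784 and 1414 for fasting in E1 wild types, and 74 and 386 in E3 knockouts. Genotype in fasted E3 gave 605 with both feeding states in the fit, and in fasted E4 169 with no filter. Under the replicate block, fasting in E3 wild types gave 1539 genes instead of 2891, in E3 knockouts 19 instead of 74, and the E3 interaction 0 instead of 202. Joint fasting gave 1637 instead of 5060 in wild types only. Without libraries holding other tissues, E5 minus E2 gave 1792 instead of 5749 and fasting in E3 wild types 1543. The causes were not tested.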
